A study of Danio rerio with 18 samples.

Results

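The genes described here are the nuclear-encoded genes of oxidative phosphorylation. They were chosen by name from the 34326 genes of each deposited table: symbols beginning with nduf, sdha to sdhd, uqcr, cycs, cox4 to cox8 or atp5, and the gene cyc1, leaving out every gene encoded in the mitochondrial genome. The rule found 101 members, of which 40 are grouped with complex I, 6 are complex I assembly factors, 5 belong to complex II, 4 are complex II assembly factors, 9 belong to complex III, 18 to complex IV and 17 to complex V, and 2 encode cytochrome c. No measured level entered the rule, which was chosen with earlier results of these data known. A filter on low counts left 99 of them to be tested. The 2 members it removed were cycsa, which had no count in any of the 18 libraries, and ndufa4l2b, which stayed at or under 0.492 CPM.

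Oxidative phosphorylation takes place in the inner mitochondrial membrane. Complexes I and II pass electrons from NADH and succinate to coenzyme Q, complex III passes them on to cytochrome c, and complex IV hands them to oxygen. Complexes I, III and IV pump protons as they do so, and complex V, the ATP synthase, uses the returning protons to make ATP. A small set of subunits of complexes I, III, IV and V is encoded in mitochondrial DNA, complex II is wholly nuclear-encoded, and several complex IV subunits come in paralogous forms whose use differs between tissues in mammals. The retinal pigment epithelium (RPE), the pigmented cell layer behind the photoreceptors, is known for its strong reliance on mitochondrial respiration.

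Bulk RNA-seq libraries were made from at most 1000 sorted cells each, taken from dissociated eyes of zebrafish larvae and chosen for green fluorescent protein (eGFP). The labels give these cells as RPE but name neither the promoter of the reporter nor the strain. All groups were raised in 1.5X phenylthiourea, an inhibitor of pigmentation, between 0.25 and 5 days post fertilisation (dpf). Ablated groups received 10 mM metronidazole (MTZ) for 24 h from 5 to 6 dpf, which is toxic to cells that carry a nitroreductase transgene, and unablated groups (MTZ-) did not. No group with the drug and without ablation is labelled, so the drug and the ablation cannot be told apart. Cells were collected 2, 4 and 7 days post-injury (dpi), with 3 libraries in each of the 6 groups, numbered 1 to 3 in the labels.

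Total counts ran from 21.9 M to 60.4 M per library. All 11 RPE marker genes searched for were measured, and their summed level was 45400 to 137000 CPM (counts scaled to library size and composition). At 2 dpi unablated libraries held 117000 to 137000 CPM of it and ablated ones 61600 to 76100 CPM, without overlap, and the ranges overlapped at 4 and 7 dpi. Summed markers of Mueller glia were at 1250 to 5550 CPM without and 288 to 1060 CPM with ablation at 2 dpi, 5140 to 14300 against 2020 to 3780 at 4 dpi, and 3970 to 8060 against 1780 to 4060 at 7 dpi. Muscle markers, with 7 of 8 genes measured, reached 1780 CPM in unablated 2 dpi replicate 1 and 0.361 to 4.07 CPM elsewhere. The part of these cells in the results was not tested. In bulk libraries a change in the kind of cells sorted and a change of RNA within cells cannot be told apart.

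At each time an ablated library deviated from its group mean together with the unablated library of its number, with correlations across genes of 0.299 to 0.805. Comparisons within a time are therefore given from 2 fits of edgeR's quasi-likelihood test, first over group means and then with the pair as a block. A log2 fold change carries a standard error (SE), and a gene is called where its Benjamini-Hochberg adjusted p over all 20093 tested genes is below 0.05. Whether replicates are separate clutches is not stated in the labels, and p-values cover only the spread between these libraries.

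The members were abundant. Their summed level in deposited TPM (transcript abundance, which corrects for length) was 21800 to 117000 per library. Complex I genes took 25.8% to 34.6% of it, complex IV genes 22.8% to 35.3%, complex V genes 22% to 33.1% and complex III genes 5.12% to 9.19%. Complex II genes took 1.16% to 2.67%, cytochrome c 0.421% to 4.34%, and assembly factors of complexes I and II up to 0.597% and 0.868%. By mean TPM over the libraries, cox7c, a small complex IV subunit, stood highest at 3220, followed by the complex V genes atp5ib at 1470, atp5l at 1430 and atp5g3b at 1400. The complex IV genes cox6a1 and cox7b followed at 1360 and 1330, and the members grouped with complex I that followed, ndufa11, ndufa4l and ndufb9, stood at 977, 945 and 782.

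The main comparison asked how these cells differ from unablated ones after injury. The summed CPM of the members was higher in the ablated library than in its unablated partner in 9 of 9 pairs. At 2 dpi it was 18100, 49800 and 68800 CPM in unablated replicates 1 to 3 and 21600, 64200 and 112000 CPM in the ablated ones. Replicate 1 stood far below replicates 2 and 3 in both groups, and the groups overlapped. At 4 dpi it was 11100, 9000 and 12100 CPM in unablated and 13600, 15900 and 15900 CPM in ablated libraries, and at 7 dpi 12800, 12100 and 11600 against 14100, 21300 and 14400 CPM. At both later times every ablated library lay above every unablated one. The ratio within pairs was 1.19, 1.29 and 1.63 at 2 dpi, 1.23, 1.77 and 1.31 at 4 dpi, and 1.1, 1.76 and 1.24 at 7 dpi. Ribosomal protein genes were taken by symbol, rpl or rps followed by a digit, without a check of each gene. For the sum of these 88 the ratio was 1.39, 1.03 and 1.79, then 1.21, 1.25 and 0.872, and 0.903, 1.47 and 1.34.

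**Figure D1:**
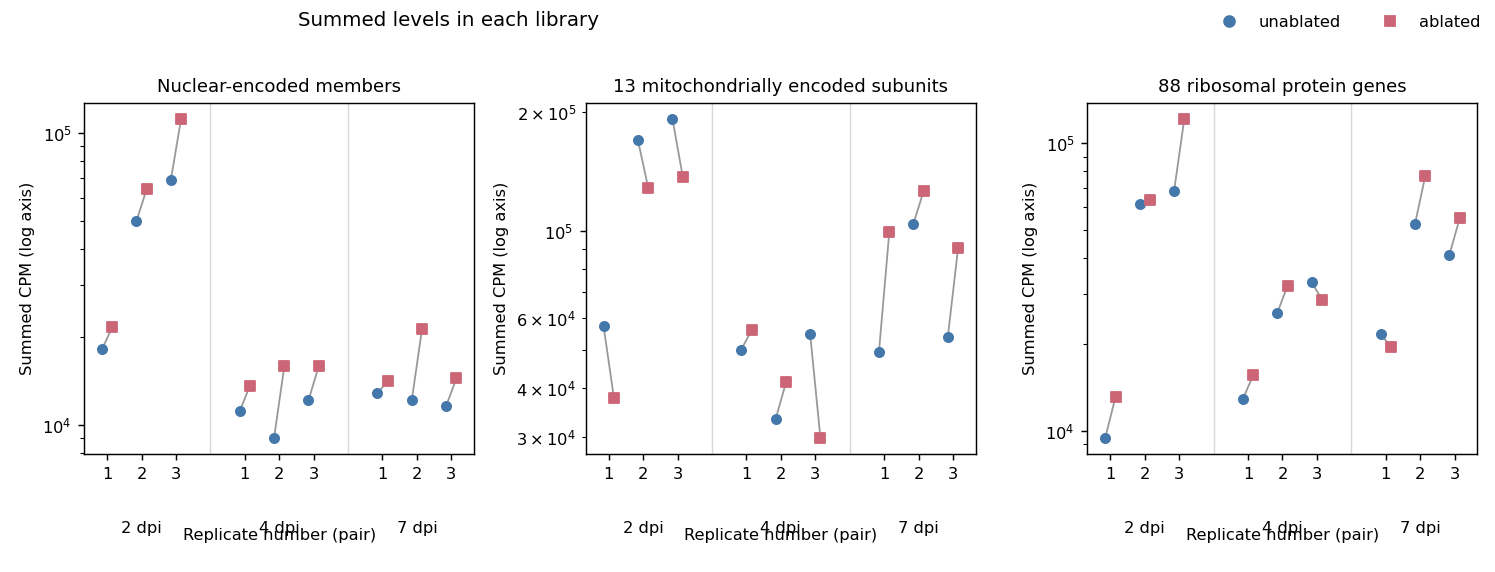
Summed CPM on a log axis in each of the 18 libraries. Panels show the nuclear-encoded members, the 13 subunits encoded in mitochondrial DNA and 88 ribosomal protein genes taken by symbol. Circles are unablated and squares ablated libraries, and a line joins the libraries of a pair. The member sum is higher in the ablated library of all 9 pairs, while the sum of mitochondrially encoded subunits is lower in all 3 pairs at 2 dpi and higher in all 3 at 7 dpi. The ribosomal protein sum is higher in all 3 pairs at 2 dpi and of mixed sign at 4 and 7 dpi.

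Single members followed in unequal measure. Of the 99 tested members 37 (37.4%) were higher in the ablated library in all 9 pairs, against 4.52% of all tested genes. No member, against 5.1% of genes, was higher in none of the 9. These 37 held 8 of 9 complex III genes, 8 of 17 complex V genes, 12 of 39 complex I genes and 6 of 18 complex IV genes. At 4 dpi 45 members (45.5%) had all ablated libraries above all unablated ones, against a background of 13.7% of genes, and at 7 dpi 29 members (29.3%), against 4.28%. At 2 dpi the count was 5 (5.05%), below the background of 10.5%. Those 5 were cycsb, cyc1, uqcrc2a, atp5c1 and ndufaf7, an assembly factor of complex I. All ablated libraries lay below all unablated ones for 2 members (2.02%) at 4 dpi, against 11.1% of genes. At 2 and 7 dpi this held for 0 members, against 11.6% and 5.04% of genes.

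Without the block few members passed the test. At 2 dpi 1 of 99 members was called, cycsb, and it was higher, while 1.39% of all genes were called higher. The median log2 fold change was 0.58 over the members and -0.03 over all genes, and 88 members had a positive value. That median was -0.07 without ablated replicate 3 and 0.18 without unablated replicate 1, and at most 1.01 without any other single library of that time. At 4 dpi edgeR called 0 members (0.0647% of genes higher). At an unadjusted p under 0.05 stood 18 of 99 members and 2354 of 20093 genes. DESeq2 called 6 members and limma on log2(TPM + 1) called 1, counts given without the share over all genes. The edgeR median was 0.49 against -0.07 over all genes, with 79 members positive. At 7 dpi edgeR called 0 members and 0% of genes, and 2 members and 1328 of 20093 genes had an unadjusted p under 0.05. DESeq2 and limma called 0 members. The edgeR median was 0.52 against 0, with 88 members positive.

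With the pair as a block 16 members were higher and 3 lower at 2 dpi, where 7.56% and 6.87% of genes were called higher and lower. At 4 dpi 19 were higher and 0 lower, with 4.69% of genes called higher. At 7 dpi 0 members were called, and 0.00498% of genes in either direction. At an unadjusted p under 0.05 stood 47 of 99 members and 2997 of 20093 genes. The calls of both times rest on 3 pairs each. Leaving out pairs 1, 2 and 3 in turn left 8, 7 and 10 calls at 2 dpi and 3, 9 and 2 at 4 dpi, and all 19 genes of each time kept their direction in each of these fits. cox4i2, cox5aa, cox6a2, cycsb, ndufab1a and ndufaf4 stayed called at 2 dpi whichever pair was left out, and atp5g1 and cox5ab did so at 4 dpi.

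The mean of the 3 ablation effects was added as a contrast after the data had been seen. Without the block 9 members were called higher and 0 lower, against 4.34% of genes called higher. They were cycsb, ndufaf4, cyc1, ndufab1a, atp5g3a, ndufaf2, cox5aa, uqcrc2a and ndufa10. Leaving out ablated 2 dpi replicate 1 gave 15, and leaving out ablated 7 dpi replicate 3 gave 3, both without the share over all genes. With the block 53 were called higher and 2 lower, against 11.1% and 10.4% of genes. These 53 included all 9 complex III genes, 21 of 39 complex I genes and 10 of 17 complex V genes, and the 2 that were lower were cox6a2 and cox4i2.

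**Figure D2:**
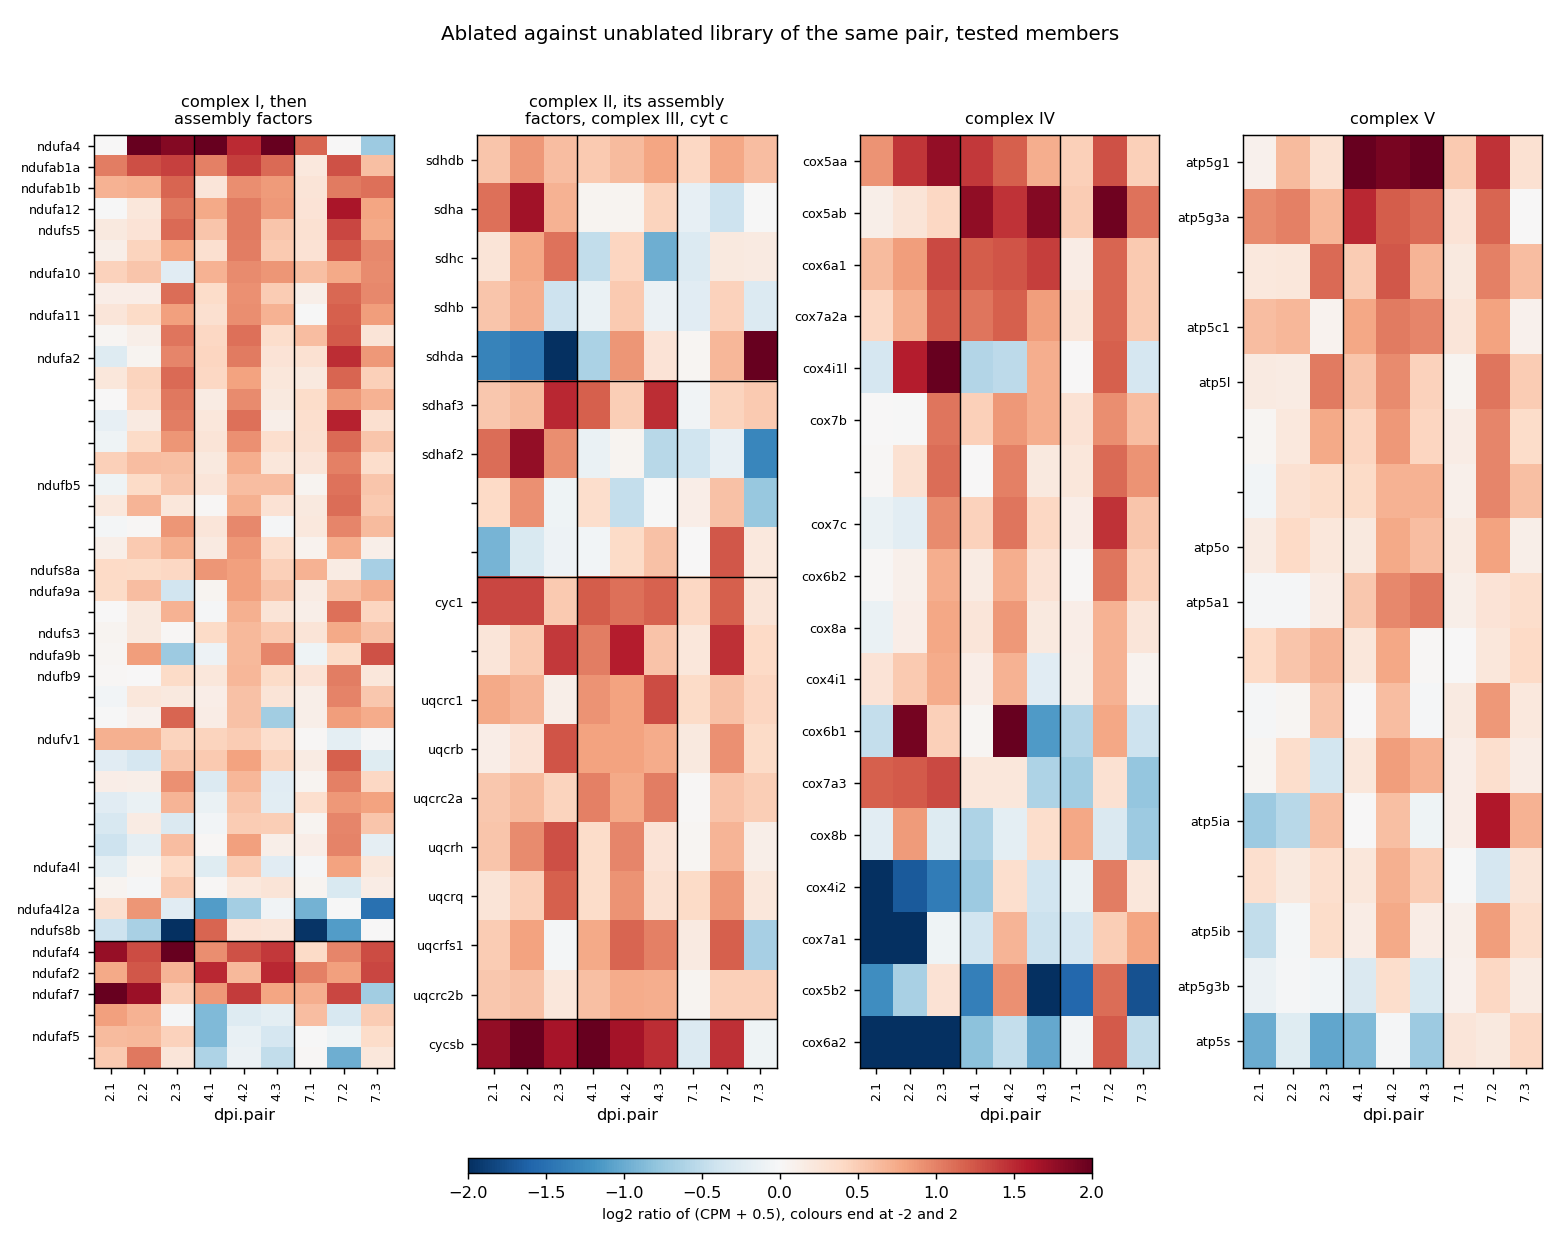
Log2 ratio of the ablated to the unablated library of each pair (CPM + 0.5) for the tested members except 1 that is not shown, grouped by complex and ordered within a group by the mean ratio; rows of members named in the text carry their symbol, columns are the 9 pairs as dpi.pair, and colours end at -2 and 2. Most cells are red, those of cycsb among the deepest, whereas cox6a2, cox4i2, cox7a1 and cox5b2 at the foot of complex IV are blue in most columns at 2 dpi.

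Cytochrome c, the soluble carrier between complexes III and IV that also triggers caspase activation when released from mitochondria, was measured through cycsb alone (ENSDARG00000044562, chromosome 6, 10675162 to 10676997 in GRCz10). At 2 dpi cycsb stood at 253, 346 and 528 CPM in unablated and 861, 1940 and 1660 CPM in ablated libraries, so the lowest ablated library was above the highest unablated one. The log2 fold change was 1.98 (SE 0.49, adjusted p = 0.043), and 1.97 (SE 0.32, adjusted p = 0.0027) with the block. The call without the block was lost when any single library of that time other than ablated replicate 1 was left out (adjusted p = 0.075 to 0.15). At 4 dpi cycsb was 48, 72.9 and 62.8 CPM against 194, 233 and 176 CPM, again without overlap, and rose by 1.73 with the block (SE 0.32, adjusted p = 0.0095), with an adjusted p of 0.15 without it. By 7 dpi the libraries overlapped at 141, 73.2 and 259 CPM against 116, 202 and 246 CPM, a log2 difference of 0.25 (SE 0.47, adjusted p = 0.96).

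Complex III, the cytochrome bc1 complex, had values of 1 sign. All 9 genes had a positive log2 fold change at all 3 times, with medians of 0.87, 0.93 and 0.46 at 2, 4 and 7 dpi without the block. cyc1, which encodes cytochrome c1, the subunit that passes electrons to cytochrome c, stood at 246, 367 and 324 CPM in unablated and 622, 926 and 467 CPM in ablated libraries at 2 dpi. All ablated libraries were above all unablated ones, and with the block cyc1 rose by 1.07 (SE 0.23, adjusted p = 0.011). At 4 dpi it was 76.4, 131 and 122 CPM against 177, 281 and 277 CPM, and it rose by 1.17 (SE 0.23, adjusted p = 0.013 with the block).

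The core proteins of complex III were called with the block at 4 dpi. uqcrc1 went from 142, 142 and 120 CPM to 266, 249 and 295 CPM, a rise of 1.01 on the log2 scale (SE 0.19, adjusted p = 0.01). For its partner subunit uqcrc2a the levels were 24.9, 40.8 and 38.6 CPM and 50.9, 69.2 and 78.9 CPM, with a rise of 0.94 (SE 0.18, adjusted p = 0.012). The paralogue uqcrc2b rose by 0.69 (SE 0.17, adjusted p = 0.033), from 79.2 to 92.5 CPM up to 120 to 152 CPM. uqcrh, the hinge protein near cytochrome c1, was called at 2 dpi, where it was 294, 760 and 1210 CPM against 429, 1460 and 2950 CPM and rose by 0.93 with the block (SE 0.22, adjusted p = 0.018). The small subunits uqcrb and uqcrq, which with uqcrh had the highest TPM of the complex, and the iron-sulfur protein uqcrfs1 were not called at any time, with log2 values of 0.42 to 0.98 with the block at 2 and 4 dpi.

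Complex I, which oxidises NADH, held the most members and few calls at single times. With the block 3 of its 39 tested genes were called higher at 2 dpi and 2 at 4 dpi. Over all genes 7.56% and 4.69% were called higher, so these counts are not read as a result about complex I. For the mean effect with the block 21 of the 39 were called higher, against 11.1% of all genes. Without the block none of its 39 tested genes passed at 2, 4 or 7 dpi, while 37, 35 and 35 had a positive log2 fold change, with medians of 0.58, 0.48 and 0.59. ndufab1a, a mitochondrial acyl carrier protein gene that also serves as a complex I subunit, was 159, 331 and 470 CPM in unablated and 326, 812 and 1220 CPM in ablated libraries at 2 dpi. With the block it rose by 1.23 (SE 0.21, adjusted p = 0.0037), and at 4 dpi by 1.18 (SE 0.21, adjusted p = 0.009), from 72.9, 44.3 and 54.2 CPM to 147, 116 and 119 CPM. Its paralogue ndufab1b rose by 0.87 at 2 dpi (SE 0.22, adjusted p = 0.026) and had a log2 value of 0.68 at 4 dpi (adjusted p = 0.093). In TPM, ndufab1a was 112% to 118% of ndufab1b in unablated libraries at 2 dpi and 129% to 170% in ablated ones.

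Other complex I subunits called with the block at a single time were ndufv1 and ndufa10. ndufv1, which holds the NADH binding site, was 328, 81 and 105 CPM in unablated and 538, 133 and 143 CPM in ablated libraries at 2 dpi, so pair 1 was high in both groups, and it rose by 0.62 (SE 0.16, adjusted p = 0.024). ndufa10, an accessory subunit, went from 47.7, 50.1 and 52.8 CPM to 77.1, 97.3 and 97.7 CPM at 4 dpi, a rise of 0.85 (SE 0.19, adjusted p = 0.024). At 7 dpi it was 58.5, 46.3 and 46.4 CPM against 88.9, 78.3 and 89.3 CPM, without overlap but not called (log2 0.77, SE 0.19, adjusted p = 0.15 with the block). The accessory subunits ndufa2, ndufa12 and ndufs5 had the largest 7 dpi values of the complex among members of at least 20 CPM, 0.9, 0.9 and 0.83 without the block, and none was called. Among the most abundant, ndufa11, ndufb9 and ndufa4l were not called at any time either, and ndufa4l lay near no change at 2 and 4 dpi, with 0.22 and -0.04 (SE 0.57 for each).

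The other paralogue pairs grouped with complex I had unequal levels. The major forms ndufa9a and ndufs8a were at 40.2 to 310 and 17.8 to 148 CPM over the libraries. By TPM ndufa9b was 6.84% to 12.8% of ndufa9a, and neither was called at any time after ablation. ndufs8b stood at 0 to 4.85 CPM, near or below the limit that 3 counts allow in many libraries, and has no interpretable fold. The reference table gives the name NDUFA4, a subunit first assigned to complex I and now placed in complex IV, to the abundant ndufa4l, and calls the gene listed as ndufa4 ndufa4b. That rare gene, ndufa4 in the deposited tables, was at 0.028 to 11 CPM. It was 0.076, 0.362 and 0.0528 CPM against 1.78, 1.91 and 2.91 CPM at 4 dpi, with an adjusted p of 0.22 without the block and 0.053 with it. Unablated replicates 1 and 3 lay near and below the limit of 3 counts, 0.057 and 0.0793 CPM there. The size of the difference is therefore uncertain.

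Of the 6 assembly factors of complex I, 2 were called higher and 0 lower at 2 and at 4 dpi with the block. Over all genes 7.56% and 4.69% were called higher at these times. Without the block 6 of the 6 had a positive log2 fold change at 2 dpi and 3 at 4 dpi. ndufaf4, an early assembly factor, was 5.21, 25.7 and 18.2 CPM in unablated and 18.5, 64.5 and 81.3 CPM in ablated libraries at 2 dpi. With the block it rose by 1.77 (SE 0.29, adjusted p = 0.0028), and at 4 dpi by 1.37 (SE 0.29, adjusted p = 0.018), from 1.98 to 3.19 CPM up to 6.16 to 6.78 CPM. ndufaf2, a chaperone of late assembly, rose by 0.9 at 2 dpi (SE 0.26, adjusted p = 0.039) and by 1.31 at 4 dpi (SE 0.26, adjusted p = 0.014, 6.76, 4.98 and 2.96 CPM against 20.2, 8.08 and 9.32 CPM). ndufaf5, a further assembly factor, had values of 0.59 at 2 dpi and -0.49 at 4 dpi without the block and was not called.

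Complex II, succinate dehydrogenase, which links the citric acid cycle to the chain, was called at 2 dpi through sdha and sdhdb with the block. sdha, the flavoprotein that binds succinate, was 95.2, 28.8 and 40.2 CPM in unablated and 205, 93.2 and 65.7 CPM in ablated libraries and rose by 1.17 (SE 0.22, adjusted p = 0.005). It differed little at 4 dpi, at 64, 98.8 and 73.1 CPM against 66.8, 103 and 99.7 CPM (log2 0.19, adjusted p = 0.67), and at 7 dpi the value was -0.2 (SE 0.21, adjusted p = 0.71). sdhdb, a membrane anchor, rose by 0.68 at 2 dpi (SE 0.17, adjusted p = 0.02) and by 0.66 at 4 dpi (SE 0.17, adjusted p = 0.036). At 7 dpi it was 61.3, 56 and 50.4 CPM against 82.3, 96.6 and 77 CPM, without overlap and not called (adjusted p = 0.17 with the block).

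The second anchor gene sdhda was much less abundant and had lower values after ablation at 2 dpi. It was 3.78, 18.2 and 21.1 CPM in unablated and 1.2, 6.56 and 4.36 CPM in ablated libraries, lower in each pair, with a log2 value of -1.8 with the block (SE 0.93, adjusted p = 0.26). In TPM it was 4.65% to 14.4% of sdhdb in unablated libraries at that time and 1.01% to 2.81% in ablated ones. sdhb, the iron-sulfur subunit, and sdhc, an anchor, were not called. Of the assembly factors, sdhaf2, which attaches the flavin to sdha in other eukaryotes, was 19.1, 19.5 and 46.1 CPM against 42.1, 66.8 and 88.2 CPM at 2 dpi and rose by 1.28 with the block (SE 0.28, adjusted p = 0.012). sdhaf3 rose by 1.13 at 4 dpi (SE 0.3, adjusted p = 0.041), from 3.54 to 7.2 CPM up to 10.3 to 14 CPM.

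Complex IV, cytochrome c oxidase, held calls in both directions, and the 3 members called lower at 2 dpi were all in it. The mammalian genes of the same names are tissue-restricted forms or, for COX4I2, a form induced by low oxygen. cox6a2 (chromosome 3, 30909081 to 30911260), named for the heart and muscle form of subunit VIa, was 13.3, 92.8 and 199 CPM in unablated and 0.449, 9.09 and 22.6 CPM in ablated libraries at 2 dpi. Each ablated library was below its partner, though the groups overlapped, and with the block cox6a2 fell by 3.71 on the log2 scale (SE 0.43, adjusted p = 0.00051, against 0.14 without the block). At 4 dpi it was 13.2, 9.46 and 18.1 CPM against 7.24, 6.62 and 8.67 CPM, all ablated below and not called, and at 7 dpi 20.5, 4.58 and 3.48 CPM against 19.7, 11.4 and 2.31 CPM.

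cox6a1, the broadly used form of the same subunit, went the opposite way. It was 493, 1920 and 2840 CPM in unablated and 766, 3410 and 7110 CPM in ablated libraries at 2 dpi and rose by 0.93 with the block (SE 0.22, adjusted p = 0.019). At 4 dpi it was 190, 263 and 261 CPM against 440, 626 and 684 CPM, without overlap, and rose by 1.29 (SE 0.22, adjusted p = 0.0076). In TPM, cox6a2 was 4.1%, 7.29% and 10.6% of cox6a1 in unablated and 0.0887%, 0.403% and 0.48% in ablated libraries at 2 dpi. This share was also lower in all ablated libraries at 4 dpi, at 1.6% to 2.49% against 5.43% to 10.5%, and overlapped at 7 dpi. The reference table names the gene listed as cox6a2 COX6A1, so its link to the mammalian muscle form rests on the symbol in the deposited tables.

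Subunit 4 was much more abundant. cox4i2 (chromosome 23, 19018045 to 19024805), the form that is induced by low oxygen in mammals, was 716, 1240 and 2010 CPM in unablated and 151, 387 and 761 CPM in ablated libraries at 2 dpi. With the block it fell by 1.77 on the log2 scale (SE 0.28, adjusted p = 0.0024, against 0.17 without the block). The common form cox4i1 was 136, 527 and 692 CPM against 164, 758 and 1150 CPM, higher in each ablated library and not called (log2 0.51, SE 0.22, adjusted p = 0.16 with the block). In TPM cox4i2 was 387%, 173% and 213% of cox4i1 in unablated libraries, thus the more abundant form, and 67.7%, 37.5% and 48.4% in ablated ones, thus the less abundant. By 4 dpi the share was 246% to 632% against 191% to 387%, and at 7 dpi 262% to 281% against 236% to 328%, with overlap at both times. cox4i2 itself was 517, 619 and 613 CPM in unablated and 472, 1260 and 721 CPM in ablated libraries at 7 dpi.

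**Figure D3:**
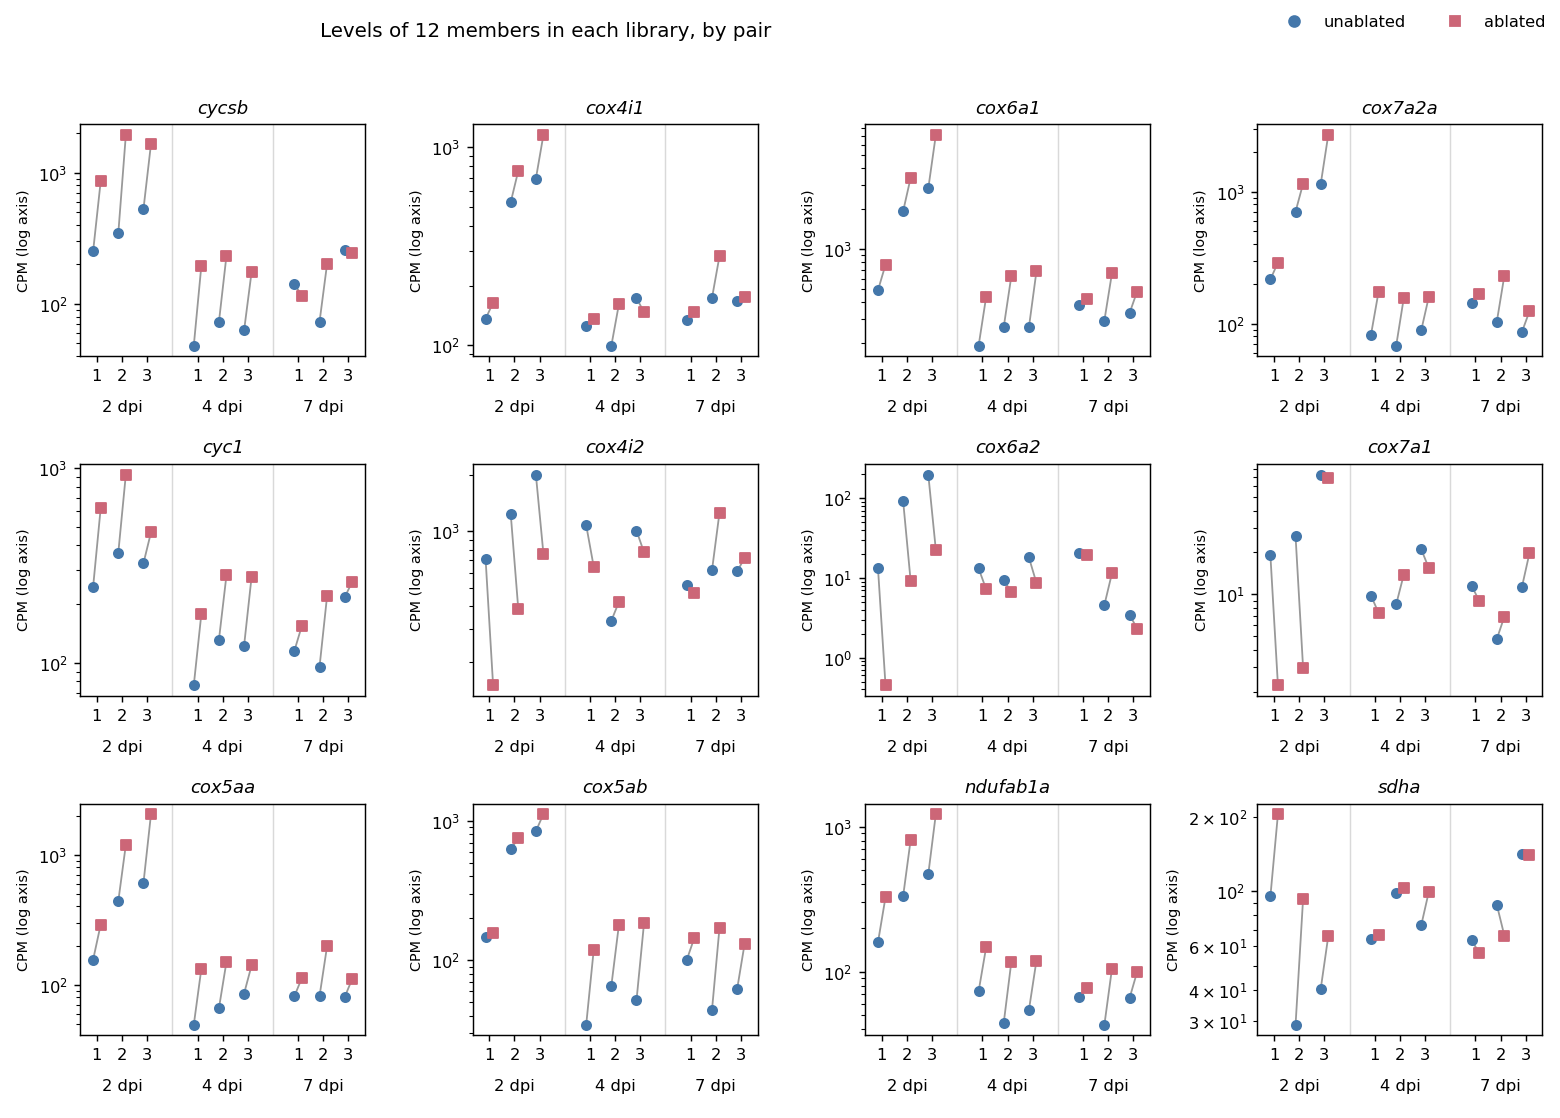
CPM on a log axis in each library for 12 members; circles are unablated and squares ablated libraries, and a line joins the libraries of a pair. cox4i2, cox6a2 and cox7a1 slope down in the pairs at 2 dpi while cox4i1, cox6a1 and cox7a2a in the row above slope up, and the slopes of cox4i2 and cox6a2 are of mixed sign at 7 dpi.

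cox7a1, named for the muscle form of subunit VIIa, was called lower with the block at 2 dpi on uneven values. It stood at 19.1, 26.2 and 72.5 CPM in unablated and 2.22, 2.97 and 68.4 CPM in ablated libraries, so pair 3 hardly differed (log2 -2.16, SE 0.6, adjusted p = 0.036). Without the block the value was -0.68 (SE 0.94, adjusted p = 0.8), and the call was lost when pair 1 or pair 2 was left out. Among the unablated 2 dpi libraries, replicate 1 held muscle markers. In CPM it was the lowest of the 3 for cox6a2 and cox7a1, as it was for the member sum. In TPM cox7a1 was 39.1, 28.3 and 64.2 there, lowest in replicate 2. The part of muscle cells in these values was not tested. cox7a2a, the common form, rose by 0.79 at 2 dpi (SE 0.23, adjusted p = 0.04) and by 1.04 at 4 dpi (SE 0.23, adjusted p = 0.019), where it was 82.4, 67.8 and 89.4 CPM against 174, 155 and 160 CPM. cox7a3, given as COX7A2L in the reference table, was 79.6, 219 and 321 CPM against 182, 513 and 801 CPM at 2 dpi and rose by 1.25 (SE 0.25, adjusted p = 0.0076), with -0.05 at 4 dpi and -0.39 at 7 dpi.

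Both copies of subunit 5a were called at 4 dpi, and cox5aa also at 2 dpi. cox5aa rose at 2 dpi by 1.37 (SE 0.24, adjusted p = 0.004 with the block), from 156, 439 and 604 CPM to 290, 1190 and 2050 CPM, and at 4 dpi by 1.11 (SE 0.24, adjusted p = 0.018). Its copy cox5ab was 147, 628 and 845 CPM against 158, 750 and 1120 CPM at 2 dpi (log2 0.26, SE 0.24, adjusted p = 0.57). At 4 dpi cox5ab went from 34.4, 65.6 and 51.6 CPM to 119, 179 and 185 CPM, without overlap, and rose by 1.69 (SE 0.25, adjusted p = 0.004). At 7 dpi it was 101, 43.8 and 62.1 CPM against 145, 171 and 132 CPM, the largest 7 dpi value among members of at least 20 CPM, and not called (log2 1.19, SE 0.25, adjusted p = 0.13 with the block). In TPM cox5ab was 97.7% to 148% of cox5aa in unablated and 56.4% to 65.5% in ablated libraries at 2 dpi. The difference of the ablation effect between times was not called for either copy (adjusted p = 0.12 for cox5ab at 4 minus 2 dpi with the block).

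The remaining subunits of complex IV were not called at any single time. The most abundant, cox7c and cox7b, were higher in every ablated library than in any unablated one at 4 and 7 dpi, with 243 to 320 CPM against 374 to 510 CPM of cox7c at 4 dpi. cox6b2 was far above its paralogue cox6b1, at 193 to 3550 CPM against 0.9 to 19.6 CPM, and neither was called. cox8a, at 87.6 to 1670 CPM, was likewise without a call, and cox8b stayed at or under 2.87 CPM. cox5b2 was lower after ablation in 6 of 9 pairs, with 25.6, 2.04 and 36 CPM against 9.61, 4.3 and 7.59 CPM at 4 dpi (log2 -0.95, SE 0.71, adjusted p = 0.49 with the block).

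Complex V, the ATP synthase, had 14, 15 and 16 of 17 genes with positive values at 2, 4 and 7 dpi without the block, with medians of 0.3, 0.58 and 0.44. At 2 and 4 dpi its calls with the block lay in the rotor ring and the catalytic head. For the mean effect 10 of the 17 were called higher with the block, against 11.1% of all genes, and these are not listed here. Subunit c, which forms the rotor ring and is encoded by several genes with the same mature protein in mammals, was measured through 3 genes. atp5g1 (given as atp5mc1 in the reference table, chromosome 3, 23468742 to 23473848) was 48.1, 95.4 and 65.7 CPM in unablated and 192, 356 and 325 CPM in ablated libraries at 4 dpi. It rose by 2.07 with the block (SE 0.24, adjusted p = 0.0018, against 0.18 without it), while at 2 dpi it was 380, 1280 and 1810 CPM against 406, 2000 and 2230 CPM and was not called.

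atp5g3a rose at both times, by 0.87 at 2 dpi (SE 0.23, adjusted p = 0.026) and by 1.29 at 4 dpi (SE 0.23, adjusted p = 0.0079, 83.9, 136 and 153 CPM against 241, 316 and 336 CPM). atp5g3b was not called. It was 471, 2430 and 3290 CPM against 433, 2400 and 3150 CPM at 2 dpi and 376, 511 and 731 CPM against 306, 650 and 588 CPM at 4 dpi, with log2 values of -0.07 and -0.09 (SE 0.19 for each, with the block). In TPM atp5g1 was 10.8% to 22.5% of atp5g3b in unablated and 66.1% to 75.7% in ablated libraries at 4 dpi. For atp5g3a that share was 12.1% to 15.3% against 27.9% to 45.1%, also without overlap.

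**Figure D4:**
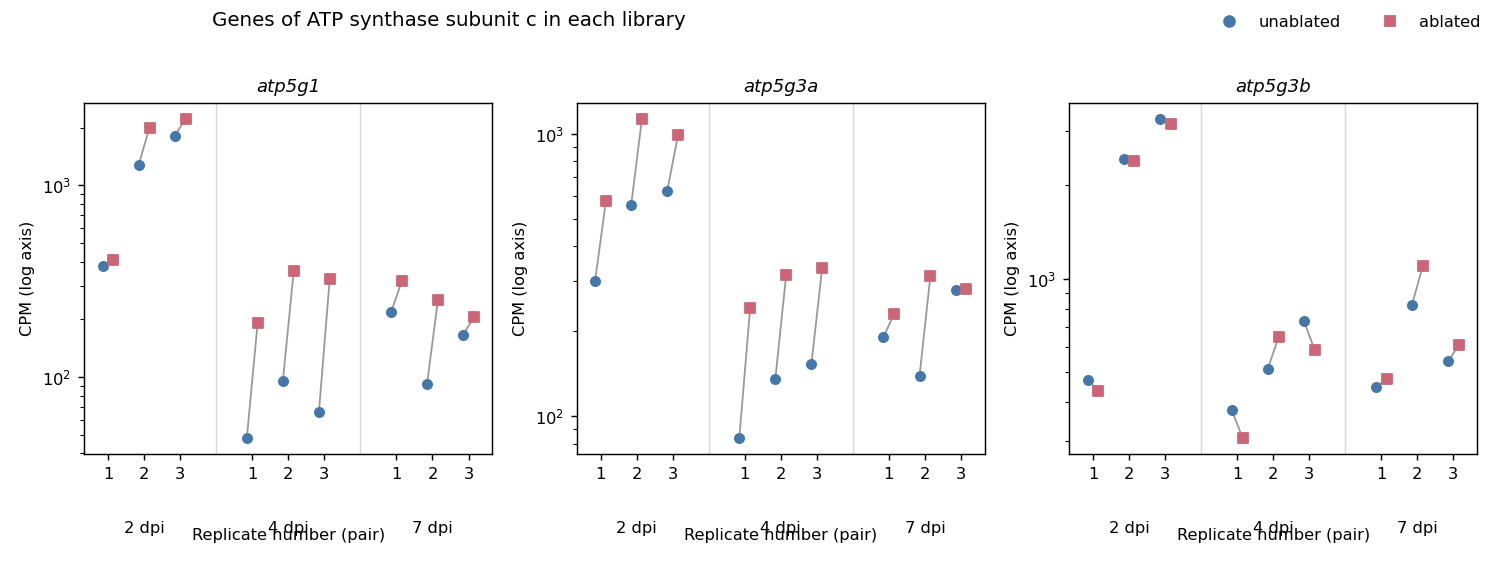
CPM on a log axis, scaled for each gene, of the 3 measured subunit c genes in each library; circles are unablated and squares ablated libraries, and a line joins the libraries of a pair. At 4 dpi all ablated libraries lie above all unablated ones for atp5g1 and atp5g3a, and the pairs of atp5g3b are of mixed sign.

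In the catalytic head, atp5a1, the alpha subunit, was 118, 283 and 236 CPM against 172, 548 and 491 CPM at 4 dpi and rose by 0.85 with the block (SE 0.17, adjusted p = 0.014). atp5c1, the gamma subunit that forms the central stalk, rose by 0.93 (SE 0.2, adjusted p = 0.019). Neither was called at 2 or 7 dpi. The abundant atp5ib and atp5l and the stalk subunit atp5o were not called at any time, and atp5ib and its copy atp5ia had 2 dpi values of 0.1 and 0.16 without the block. atp5s, given as DMAC2L in the reference table, was lower in the ablated library of all 3 pairs at 2 dpi, at 35.4, 101 and 122 CPM against 17.6, 85.4 and 59.2 CPM (log2 -0.77, SE 0.24, adjusted p = 0.055 with the block).

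Whether the ablation effect changed with time was tested on the difference of effects. Without the block edgeR called 0 members for 4 minus 2 dpi and 0 for 7 minus 2 dpi, with 0% of genes in both. At an unadjusted p under 0.05 stood 2 and 5 of 99 members, against 919 and 2060 of 20093 genes. DESeq2 and limma called 0 members for both. With the block 2 members (2.02%) had a higher effect at 7 than at 2 dpi and 3 (3.03%) a lower one. These shares lay near those of all genes, 1.94% and 2.35%. Higher were cox6a2 (difference 3.94, SE 0.58, adjusted p = 0.0084) and cox4i2 (2.15, SE 0.39, adjusted p = 0.018), whose fall at 2 dpi was not seen at 7 dpi. Lower were sdhaf2 (-1.92, SE 0.4, adjusted p = 0.027), cox7a3 (-1.64, SE 0.35, adjusted p = 0.029) and sdha (-1.37, SE 0.3, adjusted p = 0.033). For 4 minus 2 dpi the block gave 0 member calls. There 15 of 99 members and 2380 of 20093 genes had an unadjusted p under 0.05.

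The 13 subunits encoded in mitochondrial DNA were summed for comparison. Their summed level was 57300, 169000 and 192000 CPM in unablated and 37800, 128000 and 137000 CPM in ablated libraries at 2 dpi, lower in each pair. At 4 dpi it was 50000, 33400 and 54900 CPM against 56000, 41300 and 29900 CPM, and at 7 dpi 49300, 104000 and 53800 CPM against 98900, 126000 and 90300 CPM, higher in each pair. Neither fit called any of the 13 at any time, with medians of -0.49, 0.02 and 0.7 without the block. By level the first were mt-co2, mt-co3 and mt-co1, of complex IV, and mt-cyb, of complex III. mt-cyb was 9410, 34500 and 40600 CPM against 5610, 26700 and 17000 CPM at 2 dpi (log2 -0.79, SE 0.26, adjusted p = 0.071 with the block). With the block mt-cyb was also the 1 of the 13 whose effect was called higher at 7 than at 2 dpi (difference 1.51, SE 0.37, adjusted p = 0.048). The ratio of summed mitochondrially encoded to summed nuclear-encoded CPM was 3.16, 3.39 and 2.79 in unablated and 1.75, 2 and 1.22 in ablated libraries at 2 dpi, without overlap. At 4 dpi it was 4.49, 3.71 and 4.54 against 4.13, 2.6 and 1.88, and at 7 dpi 3.84, 8.54 and 4.64 against 6.99, 5.9 and 6.28, with overlap at both times.

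Genes around the chain were read from lists. Of 37 tested assembly factors outside the name rule, 13 (35.1%) were higher and 0 lower at 2 dpi with the block, against 7.56% of all genes called higher, and 5 (13.5%) and 0 at 4 dpi, against 4.69%, with none called at 7 dpi or without the block at any time. cox17, the copper chaperone of complex IV, was 58.3, 96.5 and 154 CPM against 195, 405 and 762 CPM at 2 dpi, without overlap, and rose by 2.04 with the block (SE 0.25, adjusted p = 0.00059). Also called were tmem126a (1.25, adjusted p = 0.0018), oxa1l, which inserts subunits into the inner membrane (1.48, adjusted p = 0.0039), and atpaf1, which assembles the catalytic head of complex V (1.16, adjusted p = 0.005).

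Of 27 tested genes for electron inputs, coenzyme Q and carriers, 1 was higher and 0 lower at 2 dpi without the block, and 5 (18.5%) and 0 with it, against 7.56% of all genes called higher. The first was chchd4a, which imports and oxidises proteins of the intermembrane space, at 5.85, 16.8 and 10.3 CPM against 44.8, 114 and 80.9 CPM (log2 2.86, SE 0.56, adjusted p = 0.017). coq5, of coenzyme Q synthesis, rose by 1.58 (adjusted p = 0.0028 with the block) and atpif1a, an inhibitor of the ATP synthase, by 1.34 (adjusted p = 0.0049). At 4 dpi 4 of the list (14.8%, against 4.69%) were higher with the block, among them the phosphate carrier gene slc25a3b (0.72, adjusted p = 0.03).

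Of 21 tested regulators of mitochondrial gene expression, 1 was higher and 1 lower at 2 dpi without the block, where 1.39% and 0.856% of all genes were. With the block 2 and 1 were called at 2 dpi (9.52% and 4.76%, against 7.56% and 6.87% of genes) and 1 and 1 at 4 dpi (4.76% each, against 4.69% and 3.93%), near the shares over all genes. tfb2m, a transcription factor for mitochondrial DNA, was 15.9, 9.12 and 16.9 CPM against 92.5, 66.1 and 36.2 CPM at 2 dpi (log2 2.21, SE 0.43, adjusted p = 0.017). pprc1, a coactivator of the PGC-1 family, was 2.96, 8.35 and 8.69 CPM against 79.1, 106 and 82.3 CPM and rose by 3.87 with the block (SE 0.55, adjusted p = 0.0013). esrrga, a nuclear receptor linked to respiratory genes, was 8.15, 4.45 and 4.73 CPM against 1.22, 0.621 and 0.278 CPM and fell by 3.01 on the log2 scale (SE 0.7, adjusted p = 0.035). nrf1, which encodes nuclear respiratory factor, fell by 1.53 at 4 dpi with the block (SE 0.35, adjusted p = 0.023), from 55.9, 26.2 and 56.2 CPM to 26.9, 8.72 and 14.7 CPM.

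Of 26 tested genes of the citric acid cycle and pyruvate dehydrogenase, 2 were higher and 1 lower with the block at 2 dpi and again at 4 dpi. These shares, 7.69% and 3.85%, lay near those of all genes at 2 dpi (7.56% and 6.87%) and at 4 dpi (4.69% and 3.93%). None was called without the block, and the medians without the block were 0.17, 0.01 and -0.12 at 2, 4 and 7 dpi. idh3a and idh3b, subunits of the NAD-dependent isocitrate dehydrogenase, rose at 4 dpi by 0.97 and 1.06 (adjusted p = 0.015 and 0.023). idh2, the NADP-dependent enzyme, fell by 1.09 (SE 0.21, adjusted p = 0.011), from 746, 824 and 835 CPM to 314, 468 and 362 CPM. suclg2, a subunit of succinyl-CoA synthetase, fell at 2 dpi by 1.38 (SE 0.3, adjusted p = 0.012).

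Levels also differed between times within each treatment. In unablated libraries 35 members were lower at 7 than at 2 dpi and 0 higher, against 2.71% of genes called lower, with a median log2 difference of -1.99 over the members and 0.13 over all genes. In ablated libraries 42 were lower and 0 higher, against 3.98% of genes, with medians of -2.05 and 0.11. The first by p were ndufab1a in both (-2.46 in unablated, SE 0.48, adjusted p = 0.024, and -3.07 in ablated, SE 0.5, adjusted p = 0.0052), then ndufs3 and sdhdb in unablated and cycsb and sdhaf3 in ablated libraries. The complex I gene ndufb5 was also called in unablated libraries (-2.55, SE 0.61, adjusted p = 0.033). sdhda went from 3.78, 18.2 and 21.1 CPM in unablated libraries at 2 dpi to 0.449, 0.0382 and 0.0328 CPM at 7 dpi. Its values in 7 dpi replicates 2 and 3 lie below the limit of 3 counts there, 0.115 and 0.0984 CPM. The fold is therefore not interpretable. These comparisons have no block, because a pair belongs to 1 time.

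The time difference was of unequal size among replicates. Replicates 2 and 3 at 2 dpi, whose sequencing names carry the same date, held the 4 highest member sums, from 49800 to 112000 CPM, whereas the first replicates at 2 dpi stood at 18100 and 21600 CPM. Between first replicates the member sum at 7 dpi was 0.707 of that at 2 dpi in unablated and 0.653 in ablated libraries, with 90 and 77 of 99 members lower and median log2 differences of -0.48 and -0.39. For the third replicates the ratios were 0.169 and 0.129. With replicates 2 and 3 at 2 dpi left out, 0 members were called in either treatment, with medians of -0.57 and -0.23. The unablated count was 68 without 2 dpi replicate 1, 21 without 7 dpi replicate 1 and 0 without any other of its 6 libraries. The ablated count was 70, 11 and 10 without 2 dpi replicates 1, 2 and 3 and 8, 23 and 7 without those at 7 dpi. These counts are given without the share over all genes. They show how the count depends on single libraries and are not read as results about the members. Beyond the first replicates, the date of the 2 dpi libraries is in no name of a library of another time. For 7 against 2 dpi, time and that date therefore cannot be told apart.

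Transcript length moved with this difference. The members are short: by the ratio of counts to TPM their median length was at percentile 9.79 of genes, with 75 of 99 in the shortest and 2 in the longest of 4 length classes of equal size. All genes of the shortest class had a median log2 difference of -0.72 in unablated and -0.47 in ablated libraries between 2 and 7 dpi, and those of the longest 0.46 and 0.38. Members of the second class had medians of -0.87 and -1.19, where all genes of that class had 0.02 and 0.05. Across the 99 members the difference correlated with length at r = 0.4 in unablated and 0.34 in ablated libraries (Spearman's rho 0.51 and 0.41), as a description over genes that share libraries. For the ablation effects at 2 and 4 dpi these r values were 0.05 and 0.06, and -0.15 at 7 dpi (rho -0.35). Over all genes the ablation values without the block also moved with length. Medians at 2, 4 and 7 dpi were 0.07, 0.16 and 0.28 in the shortest class and -0.16, -0.4 and -0.27 in the longest. Members of the shortest class had medians of 0.6, 0.48 and 0.57. Ribosomal protein genes, which are short too, summed to 61700 to 122000 CPM in the 4 libraries of that date and 9440 and 13100 CPM in the first replicates at 2 dpi. The part of length in the results was not tested.

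**Figure D5:**
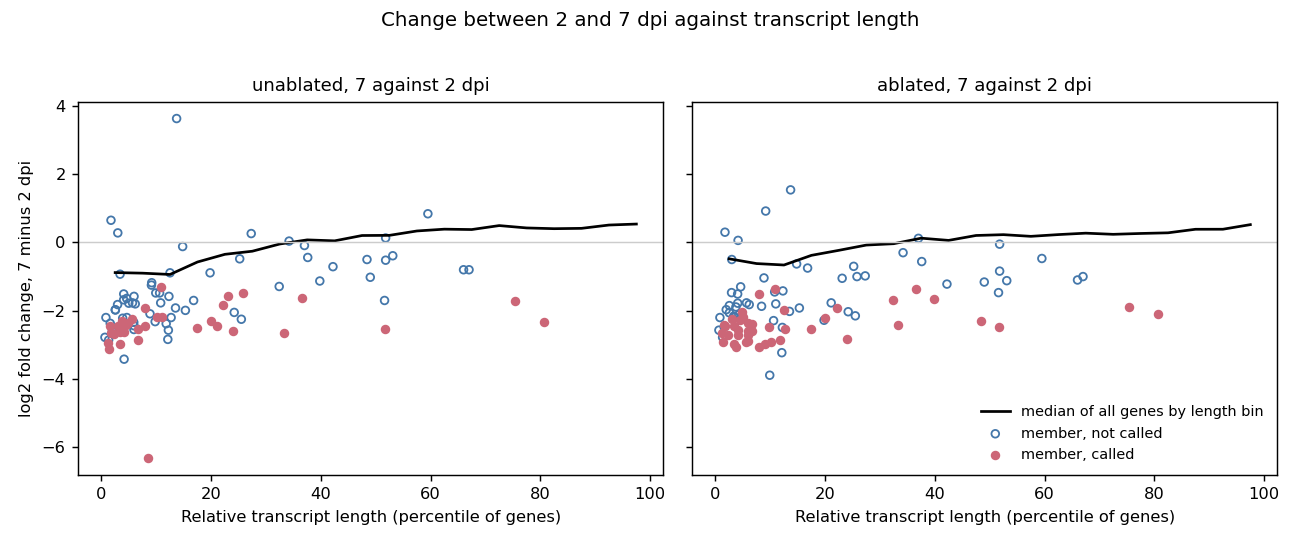
Log2 fold change between 2 and 7 dpi (7 minus 2, no block) of each tested member against its relative transcript length as a percentile of genes, in unablated and ablated libraries; filled points are called members and the line is the median of all genes in bins of length. Most members lie at the short end and below the line, and the line itself is below 0 there.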

How the data were processed

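The authors deposited a file for each time, with total counts of paired, trimmed reads and TPM for 34326 genes, per the file headers. Per the labels' protocols, SMART-Seq v4 cDNA went into Nextera XT libraries, and the build was GRCz10, per the submitters' processing notes. The sources used here do not give the aligner, counter or annotation, so how reads of near-identical copies were assigned is unknown, and values of paralogues are uncertain to that extent. Neither kit keeps strand, so antisense reads are not separated. A GRCz12tu table of RefSeq served for names alone. Unablated 4 dpi replicate 1 has a sequencing name that reads positive, and the submitters' correction to MTZ- in its label was followed.

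From the deposited counts, filterByExpr of edgeR 4.0.16 kept 20093 of 29481 genes with a count. edgeR's quasi-likelihood test (TMM, robust dispersion) was fitted to 6 group means over 18 libraries. It has 12 residual degrees of freedom, and the common biological coefficient of variation was 79.9%. CPM use TMM library sizes, and a limit of 3 counts covers counting error only. Replicate numbers in the labels were checked as pairs. After group means were removed, all 9 correlations of a library with its namesake in the other treatment were 0.299 to 0.805, against -0.7 to 0.427 for other numbers. Deviations from a group mean cancel within the group, so a positive value within a number lowers the values across numbers. These ranges are therefore not independent. Sequencing names of replicates 2 and 3 share a date within each pair. At 2 dpi these replicates all carry the same date, so the date does not tell their pairs apart. Their correlations were 0.489 and 0.642 within a number and 0.353 and 0.427 across numbers. The numbers were taken as pairs from the correlations, and the block on them leaves 6 residual degrees of freedom. Alternatives were RLE scaling, no filter, the compared groups alone, mitochondrial genes left out, first replicates left out, single libraries left out, DESeq2 1.42.0, and limma 3.58.1 on deposited TPM as log2(TPM + 1). The mean effect, single pairs left out and the 2 dpi libraries of 1 date left out were added after seeing the data. The software ran in R 4.3.3 with data.table (version 1.17.8). Both fits were run on simulated counts without pair or date effects, to check that the fold changes put in were recovered. That check cannot show how the block behaves under the correlations between paired libraries seen here.

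Named were the 12 members first by p among those called in each contrast, the 4 largest and 4 smallest ablation values at each time among members of at least 20 CPM, the 3 highest by TPM of each complex, and paralogue families, 66 in all. atp5c1 and ndufaf7 were named after their values were seen. Beside the members stood 5 pathway and 9 marker lists with 203 symbols. Members, lists and rules were chosen with earlier results of these data known. The result of 1 member chosen by this rule is not reported here.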

Additional observations from a re-analysis of the deposited data

Results flagged for a closer look

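The effect of ablation differed between 7 and 2 dpi, by a test of the difference itself, for 5 members in edgeR's quasi-likelihood test with the pair as a block. These were 2.02% of members with a higher and 3.03% with a lower effect, near the 1.94% and 2.35% of all genes. The log2 difference, 7 minus 2 dpi, was 3.94 (SE 0.58, adjusted p = 0.0084) for cox6a2. Its symbol is that of the muscle form of a complex IV subunit, while the reference table names it COX6A1. For cox4i2, the subunit 4 form induced by low oxygen in mammals, the difference was 2.15 (SE 0.39, adjusted p = 0.018). It was -1.92 (SE 0.4, adjusted p = 0.027) for the complex II assembly factor gene sdhaf2, -1.64 (SE 0.35, adjusted p = 0.029) for cox7a3 and -1.37 (SE 0.3, adjusted p = 0.033) for sdha, the succinate-binding subunit. None of the 5 was called in this contrast without the block.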

How the results depend on the processing

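With the replicate numbers as pairs in the block, the count of members called went from 1 to 19 at 2 dpi, from 0 to 19 at 4 dpi, from 0 to 5 for the effect at 7 minus 2 dpi, and from 9 to 55 for the mean effect. Calls over all genes rose too, from 452 to 2901, from 19 to 1732, from 0 to 862 and from 1613 to 4310 in the same order. The block changed no other member count, which stayed at 0 at 7 dpi and for 4 minus 2 dpi. Member counts under the settings below are given without the share over all genes. They show how the count depends on the setting and are not read as results about the members. The counts between times, 35 in unablated and 42 in ablated libraries, could not be fitted with it. DESeq2 called 4 members at 2 dpi, 6 at 4 dpi, 71 in each treatment between times and 20 for the mean effect. limma on log2(TPM + 1) called 4 at 2 dpi, 1 at 4 dpi and 22 in ablated libraries between times. Without all first replicates the counts were 0 at 2 dpi, 72 in each treatment between times and 18 for the mean effect. Without the low-count filter 0 members were called at 2 dpi. With only the groups compared in the fit 0 were called at 2 dpi, 1 at 4 dpi and 0 between times in either treatment, as also without the 2 dpi libraries of the shared date. RLE scaling and leaving out mitochondrial genes moved no count by more than 1.5 times, and none of the 53 fold changes of single named members changed direction where it was recomputed, which was for 29 of them with the block, for 24 without the libraries of the shared date and for all 53 under the other settings above. Leaving out single libraries gave 0 to 1 calls at 2 dpi, 0 at 4 dpi, at 7 dpi and for both differences of effects, 0 to 68 in unablated and 7 to 70 in ablated libraries between times, and 3 to 15 for the mean effect. Leaving out single pairs with the block gave 7 to 10 calls at 2 dpi and 2 to 9 at 4 dpi. The cause of these shifts was not tested. With 3 libraries a group, counts of 0 without the block limit what can be called and do not show that members were alike, and members under the limit of 3 counts have no interpretable fold.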

Other observations

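cox4i1l, a further gene named for subunit 4 and not described above, was concentrated in single libraries. At 2 dpi it stood at 0.889, 117 and 0.349 CPM in unablated and 0.598, 348 and 7.89 CPM in ablated replicates 1 to 3. At 7 dpi it was 0, 16.5 and 0.131 CPM against 0, 38.1 and 0 CPM, and at 4 dpi it stayed at or under 0.325 CPM. It was thus high in replicate 2 of both treatments at 2 and 7 dpi, and edgeR called it at no time, with or without the block. ndufa4l2a, a paralogue of ndufa4 that stayed at or under 2.52 CPM, was not called either.

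The marker lists not given above were low beside the RPE sum. Photoreceptor markers, all 11 measured, summed to 103 to 914 CPM without ablation and 35 to 76.2 CPM with it at 2 dpi, without overlap. Retinal neuron markers, all 8 measured, summed to 59.9 to 86.2 against 8.49 to 16.7 CPM at that time, also without overlap. Both lists overlapped between the groups at 4 and 7 dpi, where photoreceptor markers reached 2510 CPM in ablated 4 dpi replicate 2. Macrophage markers, all 6 measured, reached 474 CPM in ablated 7 dpi replicate 3 and at most 96.4 CPM elsewhere. Cell cycle genes, all 7 measured, summed to 55.7 to 904 CPM, highest in unablated 2 dpi replicate 2. Lens markers, all 5 measured, reached 101 CPM in unablated 4 dpi replicate 3, and erythrocyte markers, 2 of 4 measured, reached 8.11 CPM. Their part in the results was not tested.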
